A study of Caenorhabditis elegans with 2 samples.

Results

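The genes of the mitochondrial respiratory chain and the ATP synthase were described in a ChIP-seq map of the protein F10E7.11, a method in which chromatin bound by a protein is precipitated and sequenced. They were taken as the protein-coding genes of the Ensembl WBcel235 annotation whose symbol starts with nuo-, cox-, cyc-, ucr- or atp-. The rule gave 34 genes of 19985, and it used no measured value, but the gene set itself was chosen with earlier results of these data known, so its shares are descriptions of a selected set. The samples were whole C. elegans of strain OP658, which carries the mutation unc-119(tm4063) on chromosome III and the transgene wgIs658, from which F10E7.11 is expressed fused at its C terminus to GFP and FLAG. Both replicates had this genotype. The animals were young adults of pooled sex, collected 63 hours after starved L1 larvae were synchronised, and the precipitation used an antibody against GFP per the sample descriptions, although the antibody field names F10E7.11. There were 2 biological replicates, 1 group and no comparison group, so that no test between conditions could be made. The labels do not say which promoter drives the transgene, the protein stems from a single transgenic strain, and a whole animal mixes all tissues.

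The respiratory chain moves electrons from NADH and succinate to oxygen and pumps protons across the inner mitochondrial membrane. Complex I takes electrons from NADH, complex III passes them to the small carrier cytochrome c, complex IV hands them to oxygen, and the ATP synthase lets the protons flow back and makes ATP. A few subunits are encoded in mitochondrial DNA and all others in the nucleus, and in the worm the chain is known for its part in growth, fertility and life span. The 34 genes were sorted by symbol into 6 genes of complex I (nuo-), 6 of complex III (cyc-1 and ucr-), 2 of cytochrome c (cyc-2.1 and cyc-2.2), 7 of complex IV subunits (cox- numbered below 10), 8 of complex IV assembly factors (cox- numbered 10 and above) and 5 of the ATP synthase (atp-). All 34 lay on nuclear chromosomes. Other genes of these complexes, such as the nduf- genes, isp-1 and the asb- and asg- genes, carry other symbols and are not members.

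A member was counted as having a region where the summit, the point of highest signal, lay no more than 1000 bp before or 200 bp after an annotated 5′ end. Windows of 200 bases centred on pooled summits show what lay under cox-5A and cyc-2.1, members with a pooled q-value under 0.05. The printed windows are given in WBcel235, which is ce11, on the strand of the member. At cox-5A the window was chrIII:12905098-12905297 and ran from 393 to 194 bp upstream of the gene. At cyc-2.1 it was chrIV:4748472-4748671, from 222 to 23 bp upstream of the inner 5′ end, in an intron of the longer transcript. Capitals mark the words found on either strand.
cox-5A: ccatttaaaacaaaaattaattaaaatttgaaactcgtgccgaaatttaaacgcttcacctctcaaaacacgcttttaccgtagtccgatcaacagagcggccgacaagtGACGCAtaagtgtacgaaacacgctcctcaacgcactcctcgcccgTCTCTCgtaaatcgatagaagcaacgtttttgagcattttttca
cyc-2.1: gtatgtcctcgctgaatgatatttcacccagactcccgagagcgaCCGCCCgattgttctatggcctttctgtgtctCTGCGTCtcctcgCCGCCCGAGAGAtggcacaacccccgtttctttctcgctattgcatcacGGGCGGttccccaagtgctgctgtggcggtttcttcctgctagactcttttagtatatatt
The window of cox-5A held GACGCA once and GAGAGA once, as TCTCTC. That of cyc-2.1 held GGGCGG in both orientations, GAGAGA, and the overlapping words ACGCAG and GACGCA, as CTGCGTC. These words are not typical of the strong members. Of the 5 words counted, the 100 bp at the summit held only GGGCGG at atp-1 and none at cox-5B and cox-6A.

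The deposited ce11 lists held 18286 candidate regions for the pooled replicates, 18116 for replicate 1 and 25275 for replicate 2, which include background regions by design. The 575 peaks past the threshold on the irreproducible discovery rate (IDR) had the highest signal values of the pooled list. Signal values are the authors' own and differ in scale between lists: they ran from 56.3 to 655 in the pooled list, from 41.6 to 463 in replicate 1 and from 17.8 to 209 in replicate 2. Ranks within a list, with 1 for the highest signal value, were therefore used, but the lists differ in length, so equal ranks in different lists are not equal places. For example, cox-6B, at rank 16973 and 17106, stood at 93.69% of the list of replicate 1 and 67.68% of that of replicate 2. The read depth behind the values is unknown from these files. At F10E7.11 itself the pooled list had 1 region in the window, with a signal value of 68.9 and rank 10478, and the IDR list had none. Replicate 1 had a region there (signal value 61.0, rank 5592) and replicate 2 had none.

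Among the members, IDR peaks lay at cox-5A, cox-6A and cox-5B, which encode subunits of complex IV, and at atp-1, which encodes the alpha subunit of the ATP synthase. These were 4 of 34 genes, or 11.8%, beside 1.50% of the 19973 protein-coding genes of the nuclear genome. A further 17 members had a pooled candidate region but no IDR peak, 6 had a region in a replicate list alone, and 7 had none in any list. In all, 21 of 34 members had a pooled candidate region (61.8%, against 25.9% of all genes). The median rank of their strongest region was 7346, close to the 7378 of all genes with such a region. Members thus had a candidate region more often than genes at large, but the median rank of those regions was close to that of all genes. No test was made of these shares. The same 4 genes were the members with a region among the 575 strongest of both replicates (11.8%, against 0.866% of all genes).

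**Figure D1:**
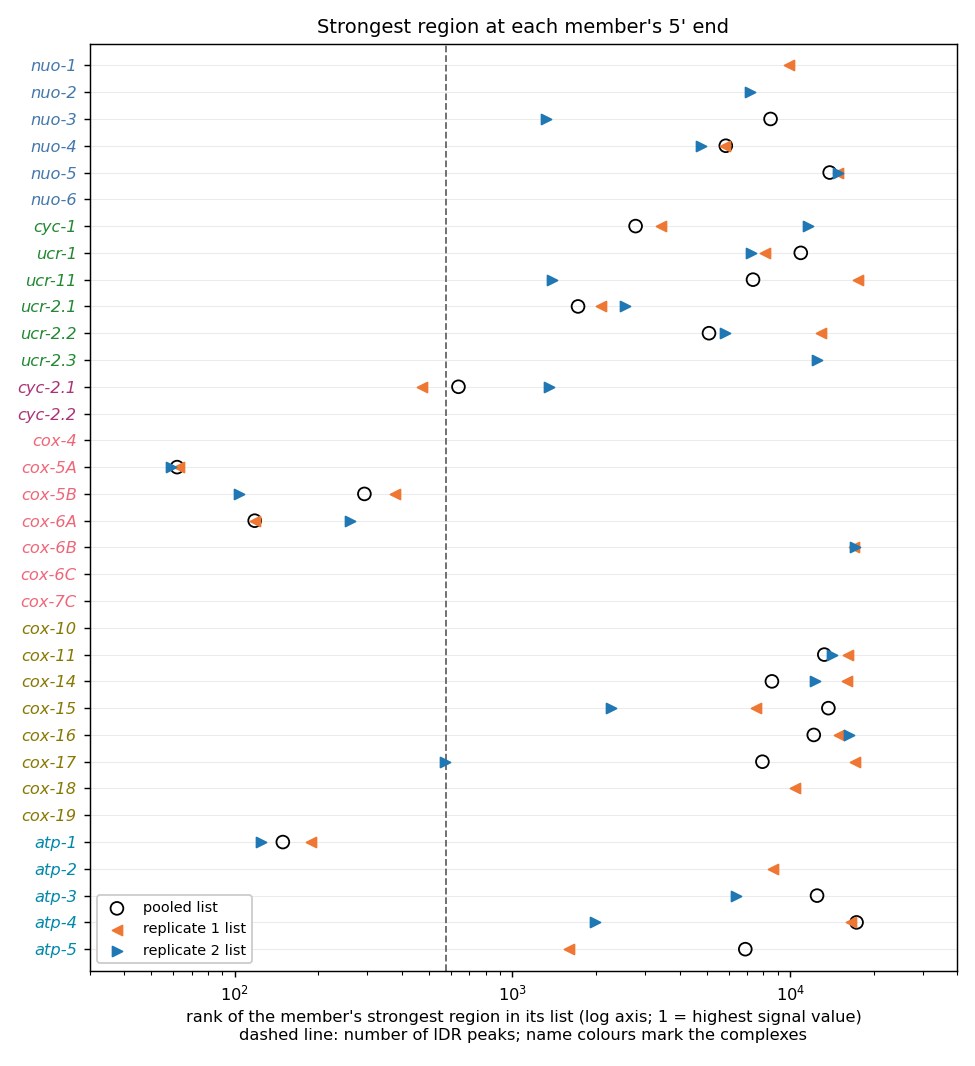
Rank of the strongest region at each of the 34 members in the pooled list (open circles), replicate 1 and replicate 2 (triangles), on a log axis where 1 is the highest signal value; names are coloured by complex and rows without a symbol had no region. The dashed line marks 575, the number of IDR peaks, and cox-5A, cox-5B, cox-6A and atp-1 lie to its left in all 3 lists. For cox-5B the symbol of replicate 1 is a region 7 bp downstream of the 5′ end. The other symbols there are regions 825 bp upstream (pooled) and 816 bp upstream (replicate 2).

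The complexes differed in where their few strong regions lay. Complex IV subunits had an IDR peak at 3 of 7 genes (42.9%) and the ATP synthase at 1 of 5. Complex I and complex III had an IDR peak at 0 of 6 genes each, cytochrome c at 0 of 2 and the complex IV assembly factors at 0 of 8. This order depended on the window. With 500 bp before and 100 bp after the 5′ end, complex IV subunits had an IDR peak at 1 of 7 genes, and with 250 bp before and 50 bp after at 0 of 7, while the ATP synthase had 1 of 5 with each. With so few genes a group, a count of 0 does not show that peaks are absent, and differences between the groups were not tested. In the pooled candidate list the order was another, with 5 of 6 genes of complex III, 4 of 5 of the ATP synthase, 5 of 8 assembly factors, 3 of 6 genes of complex I, 1 of 2 of cytochrome c and 3 of 7 complex IV subunits. Median ranks of these regions were 118 for complex IV subunits, 5100 for complex III, 8495 for complex I, 9690 for the ATP synthase and 12156 for the assembly factors. In the window of 1000 bp before and 200 bp after the 5′ end, complex IV subunits thus had either an IDR peak or no pooled region. Genes of complex III there nearly all had a weak one. The pattern of complex IV did not hold in narrower windows. With 500 bp before and 100 bp after, cox-5A and cox-5B had a pooled region, and only cox-5A an IDR peak. With 250 bp before and 50 bp after, cox-5B alone had a pooled region, which was not an IDR peak.

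**Figure D2:**
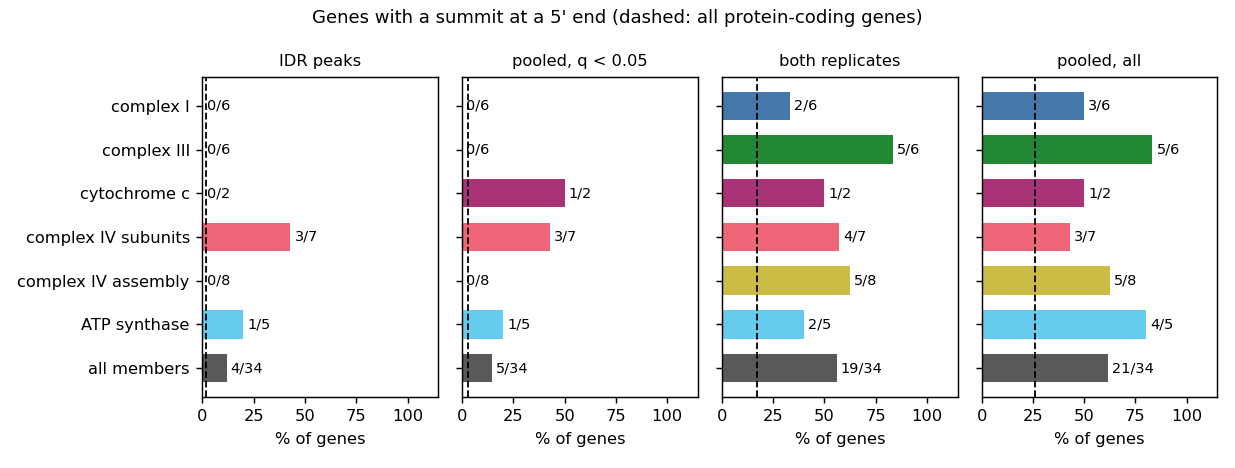
Share of the genes of each complex with a summit at a 5′ end, in percent, for IDR peaks, pooled regions with a q-value under 0.05, candidate regions of both replicates and all pooled candidate regions; each bar carries its count. The dashed lines mark all protein-coding genes, at 1.50%, 2.67%, 17.2% and 25.9%; complex IV subunits lead for IDR peaks with 3 of 7, complex III for all pooled regions with 5 of 6.

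Of the complex IV subunits, cox-5A had the strongest region of any member. It spanned chrIII:12904980-12905415, with the summit 293 bp upstream of the 5′ end in intergenic sequence. Its signal value was 286 in the pooled list (rank 62), 208 in replicate 1 (rank 63) and 86.8 in replicate 2 (rank 59). It stood in the first 0.35% of each list, and the summits of the replicates lay 37 bp apart. No other protein-coding gene had a 5′ end whose window held this summit.

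At cox-6A the summit lay 869 bp upstream of the 5′ end. It had a signal value of 237 in the pooled list (rank 118), 174 in replicate 1 (rank 118) and 60.6 in replicate 2 (rank 259). The region was strong in both replicates, but its summit was in the exon of an snRNA gene on the opposite strand. The gap of 1062 bp between cox-6A and the upstream gene alh-1 on the same strand holds this snRNA gene. No other member with a pooled region had a summit within 250 bp of a tRNA, snoRNA, snRNA, miRNA or rRNA gene. Without regions near such genes the members with an IDR peak were 3 of 34, or 8.82%, beside 1.26% of all genes.

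At cox-5B the lists held separate regions. The IDR peak, on chromosome I from 9787682 to 9788117, had its summit 825 bp upstream of cox-5B and only 276 bp upstream of tba-1, an alpha-tubulin gene. Its pooled signal value was 185 (rank 293), and the matching regions had 119 in replicate 1 (rank 494) and 76.1 in replicate 2 (rank 104). A second pooled region had its summit 8 bp downstream of the cox-5B 5′ end, in the 5′ UTR, with a signal value of 136 (rank 934). Replicate 1 had a region there, with a signal value of 128 (rank 378), and replicate 2 had none in its list. The region next to the cox-5B start itself was thus seen in 1 replicate alone, while the one shared by both lay nearer to tba-1.

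Of the other complex IV subunits, cox-6B had no pooled region but weak ones in replicate 1 (signal value 42.6, rank 16973) and replicate 2 (21.2, rank 17106). Both lay at the inner of its annotated 5′ ends. No region of any list lay in the windows of cox-4, cox-6C and cox-7C.

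The assembly factors insert heme and copper into complex IV or help to put its subunits together, as known mainly from yeast. Pooled regions lay at cox-11 and cox-17, which deliver copper, at cox-15, which makes heme A, and at cox-14 and cox-16. Their strongest regions had signal values from 62.7 at cox-15 to 75.3 at cox-17, and ranks from 7941 to 13721. At cox-17 the region ranked 572 in replicate 2, with a signal value of 50.6 (2.26% down the list), and 17159 in replicate 1, with 42.4 (94.72%). That of cox-15 ranked 7504 in replicate 1 and 2267 in replicate 2, with summits 756 bp apart, so these were different places. At cox-18, which inserts a subunit into the membrane, a region was in the list of replicate 1 alone (signal value 50.6, rank 10442). No list had one at cox-10, which makes heme O, or at cox-19.

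In the ATP synthase the range was wide. At atp-1 the summit of the IDR peak lay exactly at the annotated 5′ end, a distance of 0 bp, on chromosome I from 12652059 to 12652494. The signal value was 222 in the pooled list (rank 149), 153 in replicate 1 (rank 188) and 71.4 in replicate 2 (rank 124). The replicates put it 13 bp upstream and 25 bp downstream of the 5′ end. The oppositely placed 5′ end of mcrs-1 was 190 bp from this summit, so that the peak lay in the windows of both genes. The other subunits had no strong pooled region. That at atp-5, the d subunit, had a signal value of 78.4 (rank 6890), that at atp-3, the stalk subunit OSCP, 64.8 (rank 12490), and that at atp-4, a coupling factor, 57.5 (rank 17329). For atp-5 the region of replicate 1 reached rank 1597 with 85.8 and replicate 2 had none, whereas for atp-4 replicate 2 reached rank 1979 with 38.6 and replicate 1 only 16492 with 43.1. At atp-2, the catalytic beta subunit, only replicate 1 had a region (signal value 53.7, rank 8651).

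The region at cyc-2.1, a cytochrome c gene, lay just below the IDR list. It had a pooled signal value of 150 (rank 639), beside 155 for the weakest IDR peak, and a q-value of 0.016. It had 120 in replicate 1 (rank 474) and 41.9 in replicate 2 (rank 1349), with summits 91 bp apart. It was the fifth member with a pooled q-value under 0.05, after the 4 with an IDR peak, and these 5 were 14.7% of the members beside 2.67% of all genes. This share alone does not set the members apart. It was 14.3% (3 of 21 genes) for the vacuolar ATPase, a proton pump outside mitochondria. No list had a region at cyc-2.2, the other cytochrome c gene. In complex III no pooled region had a q-value under 0.05. The strongest, at ucr-2.1, a core protein, had a pooled signal value of 114 (rank 1722), 79.4 in replicate 1 (rank 2091) and 36.5 in replicate 2 (rank 2536). It stood between 9.42% and 11.54% of the way down each list, and the summits of the replicates lay 14 bp apart. This summit was 291 bp from ucr-2.1 and 95 bp from the opposite 5′ end of nmat-1.

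The region at cyc-1, the cytochrome subunit of complex III, had a pooled signal value of 100 (rank 2775), with 69.5 in replicate 1 (rank 3427) and 24.4 in replicate 2 (rank 11567). At ucr-2.2, another core protein gene, it was 85.5 (rank 5100), with 47.1 in replicate 1 (rank 12895) and 29.8 in replicate 2 (rank 5839). At ucr-11 it was 77.0 (rank 7346), with 42.0 in replicate 1 (rank 17590) and 41.7 in replicate 2 (rank 1391). At ucr-11 this was 97.10% down the list of replicate 1 and 5.50% down that of replicate 2, and the summits were 161 bp apart. At ucr-1, also a core protein, the pooled value was 67.9 (rank 10914). At ucr-2.3 only replicate 2 had regions, the stronger with a signal value of 23.8 (rank 12495).

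In complex I no region was among the 575 strongest of any list. Pooled signal values were 82.3 at nuo-4 (rank 5862), 73.7 at nuo-3 (rank 8495) and 62.5 at nuo-5 (rank 13869), the last of which encodes the large iron-sulfur subunit. The region at nuo-3 ranked 1317 in replicate 2, with a signal value of 42.1, and replicate 1 had none. At nuo-4 the closest regions of the replicates lay 26 bp apart, with 52.2 in replicate 1 (rank 9491) and 31.3 in replicate 2 (rank 4788). Replicate 1 had a stronger one there, 11 bp inside the gene, with 60.4 (rank 5829). For nuo-1, the flavin-binding subunit, only replicate 1 had a region (rank 9894), and for nuo-2 only replicate 2 (rank 7144). There was none in any list at nuo-6.

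Both replicates alone had regions at about as many members. In each, 23 of 34 members had a candidate region (67.6%), beside 26.0% of all genes in replicate 1 and 32.1% in replicate 2. In 19 of 34 (55.9%) both replicates had one, against 17.2% of all genes. At 12 of these 19 the closest summits of the replicates lay within 100 bp. Where a replicate had several regions the closest pair was taken. The same was not counted over all genes, so the 12 do not set the members apart. Among the 575 strongest regions, replicate 1 had 5 members (14.7%, against 1.57% of all genes) and replicate 2 had 5 (14.7%, against 1.46%). The fifth was cyc-2.1 in replicate 1 and cox-17 in replicate 2.

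**Figure D3:**
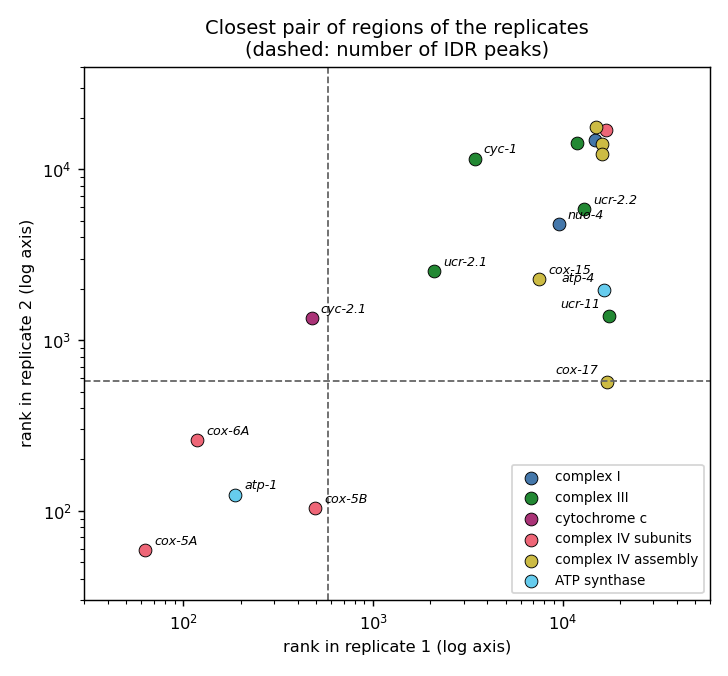
Rank in replicate 1 (x) and replicate 2 (y), both on log axes, of the closest pair of regions at the 19 members with a region in both, coloured by complex; the weakest pairs are not named. The dashed lines mark 575; cox-5A, cox-5B, cox-6A and atp-1 lie below both, cox-17 only below that of replicate 2 and cyc-2.1 only below that of replicate 1.

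The members' regions mostly lay upstream of a 5′ end, as did those of other genes. The window reached 1000 bp upstream and only 200 bp downstream, so a mostly upstream position was set by the window. At cyc-2.1 and ucr-1 the strongest pooled summit was upstream of an inner 5′ end only, in an intron and a coding exon of the gene itself. At cox-11 the summit lay 53 bp downstream of an inner 5′ end, in a coding exon of the gene. The median position of the strongest pooled region was 265 bp upstream of the member's 5′ end, beside 250 bp over all genes with a region. In all the members had 26 pooled regions, and for 17 of them the nearest protein-coding 5′ end was that of the member, for 9 that of another gene. Other genes were nearest at the IDR peak of cox-5B, and at the strongest regions of ucr-2.1, nuo-3 (arl-8, at 229 bp), atp-5 (lmtr-3, at 54 bp), cox-16 (syp-2, at 32 bp) and cox-14 (rde-4, at 626 bp). Which of 2 such genes a region belongs to cannot be told from position. With a window of 500 bp before and 100 bp after the 5′ end, 2 of 34 members had an IDR peak, cox-5A and atp-1 (5.88%, beside 0.986% of all genes). With 250 bp before and 50 bp after, it was atp-1 alone (2.94%, beside 0.586%).

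**Figure D4:**
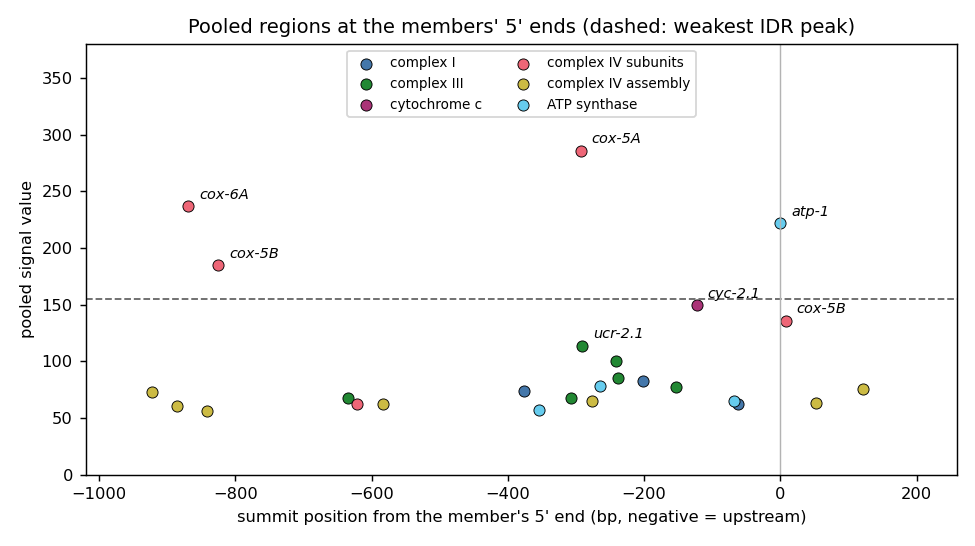
Pooled signal value against the position of the summit from the member's 5′ end in bp (negative is upstream) for all 26 pooled regions at members, coloured by complex; regions with a rank under 2000 are named. The dashed line marks 155, the weakest IDR peak: cox-6A and cox-5B lie above it at 869 and 825 bp upstream, cox-5A 293 bp upstream and atp-1 at the 5′ end.

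The IDR list also held 6 peaks outside the windows but within 2500 bp of a member, all nearer to the 5′ end of another gene. The closest lay 832 bp downstream of the cyc-2.1 start, in an intron of tctn-1, with a pooled signal value of 160 (rank 510). The strongest, at chrIV:4749865-4750300 with a pooled signal value of 314 (rank 42), was 1071 bp upstream of cyc-2.1 and 157 bp from the 5′ end of Y17G9B.5. The gene rpl-20, of a protein of the large ribosomal subunit, lies between, on the strand of cyc-2.1 and 110 bp before it. An IDR peak with a signal value of 253 (rank 95) lay 2196 bp downstream of the atp-2 start and 43 bp inside prmt-5. Another, with 171 (rank 405), lay 1224 bp downstream of the atp-5 start and 150 bp upstream of mboa-2. The IDR peak next to cox-14, with 173 (rank 389), lay 1877 bp from it and 430 bp upstream of cts-1, the citrate synthase gene of the tricarboxylic acid cycle. That next to cox-15, with 174 (rank 374), lay 2268 bp upstream of it and inside fndc-1. A pooled region 1446 bp upstream of nuo-1 had 136 (rank 933), and one 1622 bp upstream of cox-10 had 135 (rank 964). Many worm genes are transcribed in operons from a start upstream of the first gene, so the annotated 5′ end of a member need not be where its transcription begins.

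Base composition and 5 words of 6 bases were counted at the members' summits. The 4 IDR peaks at members held from 42.0% to 61.0% G+C in the 100 bp at the summit, with a median of 48.5%, beside a median of 47.0% over all 575 IDR peaks. For the strongest pooled regions of 21 members it ran from 23.0% at nuo-5 to 61.0% at atp-1, with a median of 42.0%, the same as over all 18286 pooled regions. The words GACGCA and ACGCAG were themselves taken from earlier results of these data. GACGCA lay in 3 of 21 of these windows (14.3%), which were those of cox-5A, cyc-2.1 and ucr-2.2, beside 4.17% of all pooled windows. ACGCAG lay in 1 of 21 (4.76%, at cyc-2.1), beside 3.89%. GAGAGA lay in 4 of 21 (19.0%, beside 8.71%), GGGCGG in 2 of 21 (9.52%, beside 3.23%) and TATAAA in 3 of 21 (14.3%, beside 7.41%). For each of these 5 words the share was larger than over all pooled windows, but it rests on 1 to 4 genes each and was not tested. The member windows were each a gene's strongest region near a 5′ end. The comparison took every pooled region, at any position and strength, so the sets are unlike. In the 4 IDR windows of members, GACGCA was in 1, at cox-5A, beside 9.74% of all IDR windows, and GGGCGG in 1, at atp-1, beside 6.78%. The word ACGCAG was in 0 of 4, beside 11.3%, as were GAGAGA, beside 13.7%, and TATAAA, beside 6.26%. GAGAGA and TATAAA were both in the windows of nuo-3 and nuo-5. The words were counted on both strands, ACGCAG and GACGCA overlap in 5 bases, and the counts are too few to compare complexes.

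In the 300 bp that reach from 250 bp before to 50 bp after the outermost 5′ end, which do not depend on the peaks, GGGCGG was in 7 of 34 members (20.6%) and 7.83% of all 19973 protein-coding genes. They were atp-1, atp-2, atp-3, ucr-1, ucr-2.1, cyc-2.1 and cox-6B, of which only atp-1 had an IDR peak. ACGCAG was in 4 of 34 (11.8%, beside 8.23%), GACGCA in 4 of 34 (11.8%, beside 8.78%), GAGAGA in 6 of 34 (17.6%, beside 21.8%) and TATAAA in 14 of 34 (41.2%, beside 37.9%).

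The other genes of the respiratory chain and the ATP synthase, which carry other symbols, were less often under IDR peaks by count. Of 23 such genes, 1 had an IDR peak (4.35%, beside 1.50% of all genes) and 12 a pooled region (52.2%, beside 25.9%). The IDR peak was at nduf-9, a complex I gene, 661 bp upstream, with a pooled signal value of 160 (rank 513), rank 354 in replicate 1 and 3637 in replicate 2. The next by pooled signal value were sdha-2, of complex II, with 124 (rank 1255), nduf-2.2 with 112 (rank 1812) and mai-1, an inhibitor of the ATP synthase, with 112 (rank 1820). The difference between these genes and the members was not tested. Of 4 other assembly genes, sco-1, which delivers copper to complex IV, had the strongest pooled region, with 117 (rank 1540), and none had an IDR peak. A control precipitation was not analysed here, so whether these starts would be recovered without the tagged protein was not tested.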

How the data were processed

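ChIP-seq was done with 2 biological replicates of 1 strain. Per the submitters' file lists, the authors called regions against a control library in each replicate and in the pooled replicates, and passed these lists to the IDR procedure. Each deposited region has a signal value, a −log10 of a q-value and a summit. Which aligner and caller were used, in what version and with what IDR threshold, is not given in the sources used here. Regions of the ce11 lists were used with Ensembl release 115 genes and the RefSeq sequence of WBcel235, whose chromosomes contain every region. The ce10 lists were not used. The sequence under the cox-6A summit is not reported here.

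Summits were assigned to every gene with an annotated 5′ end in range. Where a gene had several regions, that of highest signal value was taken, with its distance to the nearest of the gene's 5′ ends. Percentages of all genes are over the 19973 nuclear protein-coding genes. No test was run: there is no comparison group, members are not replicates, and depth is unknown, so no counting error is given. The assignment was tested on planted summits. The members, the gene lists and the 5 words were chosen with earlier results of these data known, GACGCA and ACGCAG from those results. All 34 members are named, with full values for those with an IDR peak or a pooled q-value under 0.05 and the 12 strongest. Other genes are named only where they share a region, or up to 4 a list by signal value; those next to peaks outside the windows were chosen after their values were seen. Python 3.11.15 and numpy 2.4.6 were used.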

Additional observations from a re-analysis of the deposited data

How the results depend on the processing

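The count of members with an IDR peak, 4 of 34, fell to 2 with a window of 500 bp before and 100 bp after the 5′ end and to 1 with 250 bp before and 50 bp after, where fewer genes of any kind had a peak. It was 5 when any overlap of the region with the window was counted (14.7%, beside 1.77% of all genes). This added cyc-2.1 through the edge of the IDR peak at rank 42, not through its own region at rank 639. The summit of that peak was 1071 bp upstream of cyc-2.1 and 157 bp from the 5′ end of Y17G9B.5. The count was 3 with the nearest gene alone, beside 239 of all 19973 genes. It was also 3 among IDR peaks at or above the median signal value (8.82%, beside 0.871%). An IDR list of 1 replicate was not used here. Among the 575 strongest regions of a single replicate, in its place, the count was 5 without replicate 1, with cox-17 added. It was also 5 without replicate 2, with cyc-2.1 added through the region 123 bp upstream of its inner 5′ end. The 21 members with a pooled region became 9 with the narrowest window (26.5%, beside 10.3% of all genes) and 5 with q-values under 0.05 (14.7%, beside 2.67%). The candidate list of a single replicate, in place of the pooled list, gave 23 for each (67.6%, beside 26.0% in replicate 1 and 32.1% in replicate 2). The 19 members with a region of both replicates became 6 with the narrowest window (17.6%, beside 5.15%), 4 with q-values under 0.05 in each replicate (11.8%, beside 1.37%) and 5 among the 2000 strongest regions of each (14.7%, beside 2.23%). With the outermost 5′ end alone 19 members had a pooled region (55.9%, beside 22.7%), and cyc-2.1 and cox-11 had none. The other alternatives stayed within 1.5 times these counts, and no member is mitochondrially encoded, so leaving such genes out changed nothing. Of 189 counts for single complexes under an alternative, 155 stayed within 1.5 times and 34 did not, 3 of them upward. The 155 include counts that were 0 under both settings. They also include alternatives that could not change a complex, as leaving out mitochondrially encoded genes or the cox- genes numbered 10 and above. The tally is therefore no measure of how stable the counts for single complexes are. Counts by both replicates have no version with a replicate left out. No paired analysis was possible because there is 1 group. Depth behind the regions is unknown, so a member without a region cannot be told from one with too few reads.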

Other observations

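Of 19 genes of the tricarboxylic acid cycle and pyruvate dehydrogenase, 10 had a pooled region (52.6%, beside 25.9% of all genes) and 1 an IDR peak, cts-1, with a pooled signal value of 173 (rank 389). Of 70 mitochondrial ribosome genes 28 had a pooled region (40.0%) and 2 an IDR peak (2.86%, beside 1.50%), mrpl-32 with 242 (rank 111) and mrpl-41 with 176 (rank 353). Of 13 genes of mitochondrial protein import, 6 had a pooled region (46.2%) and 0 an IDR peak, the strongest being tomm-7 with 153 (rank 592). Of 8 ubiquinone genes 3 had a pooled region (37.5%), led by clk-1 with 140 (rank 834). Of 4 adenine nucleotide carrier genes 1 had one, a share near the 25.9% of all genes, ant-1.1, with 136 (rank 920). The vacuolar ATPase, a proton pump outside mitochondria, had pooled regions at 10 of 21 genes (47.6%) and no IDR peak, led by unc-32 with 153 (rank 598) and vha-13 with 139 (rank 858). Pooled regions with a q-value under 0.05 lay at 3 of 21 vacuolar ATPase genes (14.3%), near the 14.7% of the members. They also lay at 1 of 8 ubiquinone genes (12.5%) and 1 of 4 adenine nucleotide carrier genes. The share was lower for protein import (7.69%), the tricarboxylic acid cycle and pyruvate dehydrogenase (5.26%) and the mitochondrial ribosome (4.29%). Differences between these lists were not tested.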
